A study of Mus musculus with 42 samples.

Results

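Zbtb16, Bcl6 and Prdm1 encode DNA-binding transcriptional repressors and were followed in mouse bone marrow-derived macrophages treated with dexamethasone (Dex), a synthetic glucocorticoid. The 3 genes were taken by symbol from the 11160 genes of the deposited table, and all 3 were found there. They were chosen by their measured Dex responses, as repressors that moved in opposite directions, so their change with Dex is given below as a description with no test.

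Zbtb16 encodes PLZF and Bcl6 encodes BCL6, members of the family that joins a BTB domain, which recruits co-repressors, to zinc fingers that bind DNA. Prdm1 encodes BLIMP-1, a zinc finger repressor of the PRDM family. In B cells BCL6 holds the germinal centre programme and BLIMP-1 drives plasma cell differentiation, and each represses the gene of the other. In macrophages BCL6 restrains inflammatory genes, and in mouse osteoclast precursors, which share the macrophage lineage, BLIMP-1 acts against Bcl6. PLZF is best known from innate-like T cells, and its gene is a glucocorticoid-induced gene in many tissues. Glucocorticoids act through the glucocorticoid receptor (Nr3c1), which raises the transcription of some genes and lowers that of others.

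The cells were grown from bone marrow for 6 days with M-CSF, replated, and used the next day. The mutant cells carried an MS4A4A knockout (KO), which concerns a membrane protein of macrophages, and wild-type cells (WT) were set against them. In each genotype, RNA was taken from untreated cells, and from cells given 1 µM Dex or vehicle for 2, 8 or 24 h, which gives 14 groups of 3 libraries. The sources used here give neither the strain, age and number of mice nor the targeted part of the gene, and nothing says that replicates came from separate cultures or animals, so p-values measure the spread between these libraries, which may be technical.

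The 42 libraries held 10140211 to 33528397 counts. Levels are CPM, the counts of a gene scaled to library size, and a library's own value is given wherever single values appear, in the order of replicates 1, 2 and 3. As a check of the labels, mean Ms4a4a was lower in KO than in WT cells in every condition, for example 46.7 ± 2.7 CPM in KO and 89.1 ± 6.4 CPM in WT untreated cells (SD, n = 3 each), so a transcript was still counted in the KO. With vehicle at 24 h the genotypes overlapped, with 93.0, 179 and 53.5 CPM of Ms4a4a in KO and 213, 142 and 148 CPM in WT. Of 8 macrophage markers, 8 were measured, with a summed level of 18027 to 42243 CPM in Dex libraries and 20542 to 39768 CPM in the others. Single markers did move with Dex over vehicle (edgeR adjusted p under 0.05), 2 higher and 0 lower at 2 h, 3 higher and 2 lower at 8 h and 2 higher and 3 lower at 24 h. Mertk, a receptor for the uptake of dying cells, was 1.37 ± 0.09 higher on the log2 scale at 8 h, and Fcgr1, an Fc receptor, was 0.90 ± 0.11 lower at 24 h (SE). The library labelled KO vehicle 24 h replicate 2, with the highest Ms4a4a of its group, stood apart in other genes too. It held 69.9 CPM of the glucocorticoid-induced gene Fkbp5, against 14.2 and 16.9 CPM in the other KO vehicle libraries of that time. Its Zbtb16, Bcl6 and Prdm1 levels were 1.56, 42.4 and 34.3 CPM. Without that library, the log2 fold change of Dex over vehicle at 24 h was 3.67 for Zbtb16, -0.99 for Bcl6 and -1.24 for Prdm1, where all libraries gave 3.70, -0.92 and -1.20. The averaged difference between KO and WT without Dex was then 0.20 for Zbtb16, 0.16 for Bcl6 and 0.02 for Prdm1, and none of them was called (edgeR adjusted p = 0.737, 0.643 and 0.976). The other vehicle libraries of 24 h were not uniform either. WT replicates 1, 2 and 3 held 19.0, 12.6 and 12.4 CPM of Fkbp5 and 360, 187 and 229 CPM of Tsc22d3. KO replicates 1 and 3 held 311 and 187 CPM of Tsc22d3.

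All 3 genes lie on the minus strand (GRCm38, GENCODE M21): Zbtb16 at chr9:48654297-48836222, Bcl6 at chr16:23965052-23988852 and Prdm1 at chr10:44437177-44528501. RefSeq promoter sequences (GRCm38.p6, from 250 bases before to 50 bases after a start site) matched 2 of the 3 genes. None matched Zbtb16, so only those of Bcl6 and Prdm1 are shown. Bcl6 promoter 1 (chr16:23988803-23989102, minus strand) lies at the gene start of GENCODE, Bcl6 promoter 2 is at chr16:23981234-23981533 (minus strand), and the Prdm1 promoter (chr10:44458699-44458998, minus strand) lies inside the gene span of GENCODE. Capitals mark matches, on either strand, to the motifs searched.
Bcl6 promoter 1: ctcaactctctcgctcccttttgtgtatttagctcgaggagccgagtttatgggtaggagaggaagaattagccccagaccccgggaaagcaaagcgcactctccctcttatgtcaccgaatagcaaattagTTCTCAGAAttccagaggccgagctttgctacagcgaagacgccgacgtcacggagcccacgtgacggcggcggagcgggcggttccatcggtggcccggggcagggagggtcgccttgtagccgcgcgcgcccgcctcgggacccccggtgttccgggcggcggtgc
Bcl6 promoter 2: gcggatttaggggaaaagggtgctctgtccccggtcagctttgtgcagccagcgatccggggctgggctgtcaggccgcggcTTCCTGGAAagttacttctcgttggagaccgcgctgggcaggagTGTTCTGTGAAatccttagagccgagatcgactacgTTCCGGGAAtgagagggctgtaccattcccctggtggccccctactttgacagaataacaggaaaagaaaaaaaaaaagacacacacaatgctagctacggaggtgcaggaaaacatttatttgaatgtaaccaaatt
Prdm1 promoter: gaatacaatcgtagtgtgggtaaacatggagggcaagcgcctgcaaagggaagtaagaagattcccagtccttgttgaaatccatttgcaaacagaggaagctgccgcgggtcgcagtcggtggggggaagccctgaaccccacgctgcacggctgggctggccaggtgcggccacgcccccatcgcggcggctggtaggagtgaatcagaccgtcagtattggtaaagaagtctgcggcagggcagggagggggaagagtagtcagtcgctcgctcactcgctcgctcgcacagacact

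The motifs searched on both strands were the monomer site AGAACA of the glucocorticoid receptor and its full site (that monomer site, 3 bases of any kind, and its reverse complement), the BCL6 site TTCCNAGAA, one form of the BLIMP-1 core (GTGAAAG), the STAT site TTCNNNGAA and the AP-1 site TGACTCA. Bcl6 promoter 1 held 1 match to the STAT letters. Bcl6 promoter 2 held 3 matches to the STAT letters, and 1 of these overlapped its single match to the receptor monomer site. The Prdm1 window held none of the listed letters, which says no more than that. Of all 32851 promoters of the same length, 8.30% held the STAT letters, 19.0% the monomer site, 0.00913% the full site, 2.24% the BCL6 site, 4.24% the BLIMP-1 core and 5.20% the AP-1 site. By base composition, Bcl6 promoter 1 had 62.7% G and C, Bcl6 promoter 2 had 51.7% and the Prdm1 promoter 59.7%, beside a median of 52.7% over all promoters.

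Zbtb16 was close to the bottom of the table without Dex and much higher with it. After 2 h, Dex libraries held 15.9, 14.6 and 18.02 CPM in KO cells and 17.6, 13.4 and 13.8 CPM in WT cells. The vehicle libraries of that time held 1.51, 0.974 and 0.860 CPM in KO cells and 1.19, 1.32 and 0.938 CPM in WT cells. Every Dex library thus stood well above every vehicle library, and the genotypes overlapped.

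After 8 h, Zbtb16 stood at 24.8, 26.2 and 29.6 CPM in KO cells with Dex and at 22.5, 27.9 and 24.9 CPM in WT cells with Dex. With vehicle for 8 h it stood at 0.879, 0.830 and 0.878 CPM in KO cells and at 0.663, 0.970 and 0.817 CPM in WT cells. These Dex libraries were the highest of the series for this gene, with no overlap with those of the other times.

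After 24 h, Dex libraries held 18.2, 20.03 and 18.1 CPM of Zbtb16 in KO cells and 18.3, 18.6 and 20.3 CPM in WT cells. Vehicle libraries held 1.03, 1.56 and 2.28 CPM in KO cells and 0.835, 1.60 and 1.49 CPM in WT cells. Untreated cells held 0.893, 0.791 and 1.87 CPM in KO and 1.06, 0.773 and 0.886 CPM in WT. The vehicle libraries of 24 h included the highest value without Dex, and that value was still far under the lowest Dex library. Over the genotypes, the fitted log2 fold change of Dex over vehicle was 3.76 ± 0.16 at 2 h, 4.95 ± 0.17 at 8 h and 3.70 ± 0.16 at 24 h (SE), or 13.6-, 30.9- and 13.0-fold. Counts behind these levels were 323 to 851 a library with Dex and 9 to 53 without, so the levels without Dex carry more counting error.

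Prdm1 took the opposite direction, lowest at the first time. After 2 h, Dex libraries held 2.80, 2.05 and 3.73 CPM in KO cells and 3.21, 3.37 and 2.84 CPM in WT cells. Vehicle libraries of that time held 23.5, 20.2 and 23.1 CPM in KO cells and 19.8, 27.1 and 21.4 CPM in WT cells. No library of either treatment came near those of the other.

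After 8 h, Prdm1 stood at 7.63, 7.56 and 6.75 CPM in KO cells with Dex and at 6.88, 6.76 and 9.84 CPM in WT cells with Dex. With vehicle it stood at 30.7, 30.5 and 34.4 CPM in KO cells and at 31.8, 30.9 and 38.5 CPM in WT cells. The Dex libraries of 8 h were all above those of 2 h and all below the vehicle libraries.

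After 24 h, Dex libraries held 15.8, 15.7 and 18.4 CPM of Prdm1 in KO cells and 15.99, 12.3 and 19.4 CPM in WT cells. Vehicle libraries held 39.5, 34.3 and 40.2 CPM in KO cells and 32.02, 31.5 and 46.5 CPM in WT cells. Untreated cells held 20.2, 23.1 and 29.9 CPM in KO and 28.1, 20.5 and 21.7 CPM in WT. Even at 24 h, the highest Dex library lay just under the lowest library without Dex. The fitted log2 fold change of Dex over vehicle was -2.91 ± 0.14 at 2 h, -2.12 ± 0.13 at 8 h and -1.20 ± 0.12 at 24 h (SE), that is 0.133, 0.231 and 0.435 of the vehicle level. Both sides of this ratio moved with time, since Prdm1 was higher in later vehicle libraries as well as in later Dex libraries.

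Bcl6 was also lower with Dex, by a smaller amount that was about the same at each time. After 2 h, Dex libraries held 29.0, 27.6 and 24.8 CPM in KO cells and 35.3, 29.6 and 23.9 CPM in WT cells. Vehicle libraries of that time held 69.0, 59.7 and 40.6 CPM in KO cells and 50.8, 48.2 and 38.7 CPM in WT cells. The treatments did not overlap at 2 h, although replicate 3 was the lowest of its group in all 4 of these groups.

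After 8 h, Bcl6 stood at 30.8, 28.8 and 31.0 CPM in KO cells with Dex and at 27.1, 27.6 and 24.9 CPM in WT cells with Dex. With vehicle it stood at 54.0, 51.1 and 59.6 CPM in KO cells and at 55.7, 55.8 and 54.2 CPM in WT cells. Spread was smallest here, and the treatments were well apart.

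After 24 h, Dex libraries held 29.1, 19.8 and 28.9 CPM of Bcl6 in KO cells and 24.5, 26.6 and 30.9 CPM in WT cells. Vehicle libraries held 48.0, 42.4 and 63.0 CPM in KO cells and 47.0, 40.8 and 61.6 CPM in WT cells. Untreated cells held 40.7, 39.9 and 52.0 CPM in KO and 41.1, 34.4 and 43.0 CPM in WT. Every Dex library lay under every vehicle library, but the highest Dex library (WT at 2 h) was above the lowest untreated one (WT). The fitted log2 fold change of Dex over vehicle was -0.85 ± 0.12 at 2 h, -0.96 ± 0.12 at 8 h and -0.92 ± 0.12 at 24 h (SE), that is 0.556, 0.514 and 0.528 of the vehicle level.

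**Figure D1:**
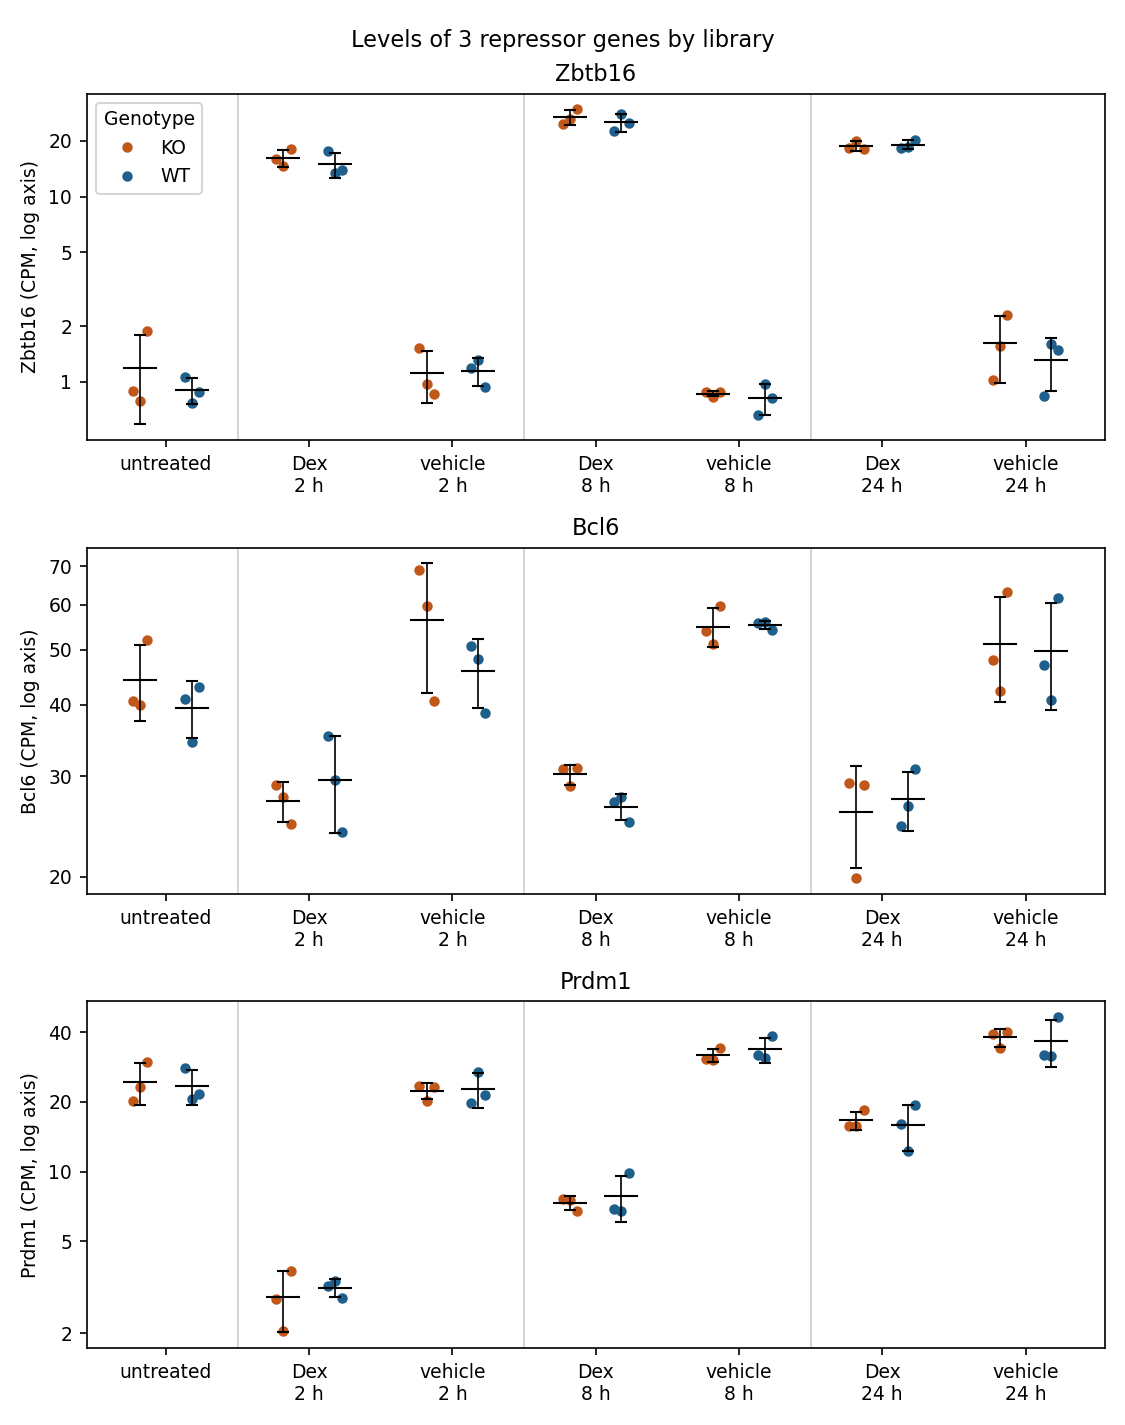
Levels of Zbtb16, Bcl6 and Prdm1 in CPM (log axis) in each of the 42 libraries, for untreated cells and for Dex and vehicle at 2, 8 and 24 h, with KO left of WT. Points are libraries and bars are the mean and SD of 3. Zbtb16 with Dex lies between 13.4 and 29.6 CPM, above all libraries without Dex. Prdm1 with Dex climbs from its lowest libraries at 2 h but stays under all libraries without Dex.

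The 3 courses differed in shape. Ordered by level, the Dex groups of Zbtb16 ran from 8 h through 24 h to 2 h without overlap between times. The lowest library of 24 h (18.06 CPM) was barely above the highest of 2 h (18.02 CPM). Those of Prdm1 ran from 24 h through 8 h to 2 h, also without overlap. For Bcl6, the Dex libraries of each time overlapped with those of the other times. Among the 14 groups placed in order of their mean, neighbours overlapped in 10 of 13 pairs for Zbtb16, 9 of 13 for Prdm1 and 12 of 13 for Bcl6. The pair of neighbours of Bcl6 that stayed apart was WT untreated cells and KO cells after 8 h of Dex. These overlaps were counted for the 3 genes only, with no share over all genes. They use the values by which the genes were picked and are given as a description. Among all genes at 2, 8 and 24 h, the fold change of Zbtb16 ranked 9, 17 and 33 from the highest. Counted from the lowest, Prdm1 ranked 3, 53 and 520, and Bcl6 ranked 99, 389 and 761. In these bulk samples, fewer cells of a type and less RNA per cell cannot be told apart.

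**Figure D2:**
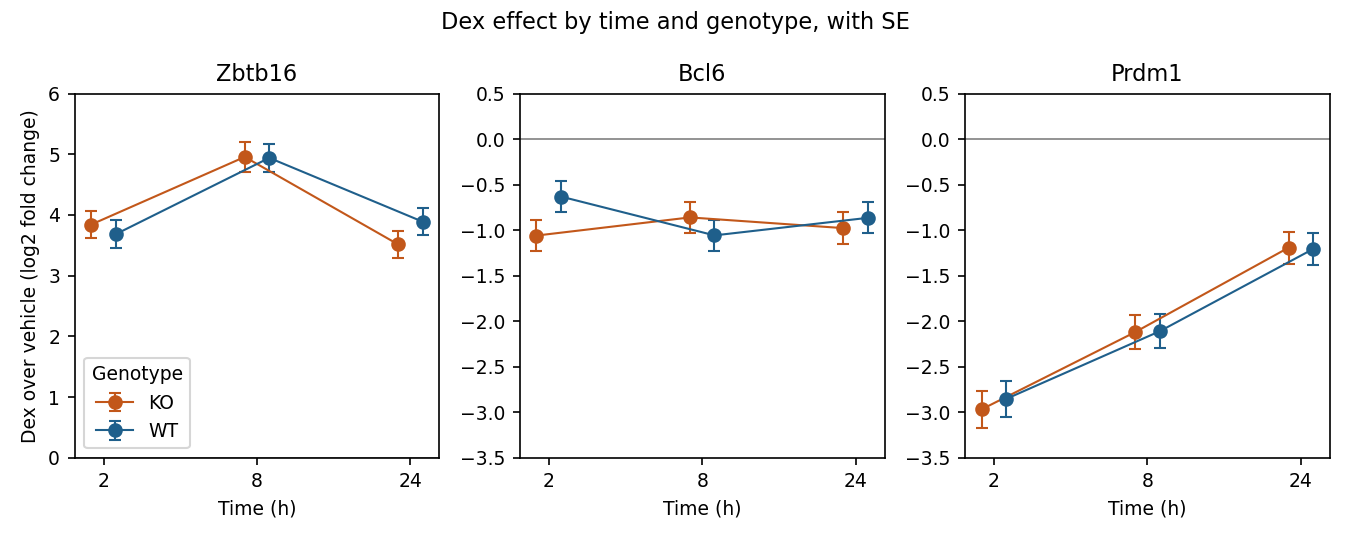
Fitted log2 fold change of Dex over vehicle for the 3 genes at 2, 8 and 24 h, in KO cells and WT cells, with bars of 1 SE. Zbtb16 is highest at 8 h (4.96 in KO and 4.94 in WT), Prdm1 is lowest at 2 h and nearer 0 at 24 h, and Bcl6 keeps a similar value at each time.

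Levels were compared between the genes per length, on a TPM-type scale over the 10745 genes with a known exon length. Zbtb16 stood at 9.16 to 16.1 in the Dex groups, above 31.4 to 45.5% of genes, and at 0.50 to 0.97 in the groups without Dex, above 2.13 to 5.13% of genes. Bcl6 stood at 11.8 to 14.3 in the Dex groups and at 18.5 to 26.7 in the others. Prdm1 stood at 1.56 in KO and 1.82 in WT after 2 h of Dex, and between 12.6 and 21.4 in the groups without Dex. The order of the 3 levels therefore changed. Without Dex it was Bcl6, Prdm1, Zbtb16 in every group. After 8 h of Dex the level of Zbtb16 was 16.1 ± 1.7 in KO and 15.4 ± 1.7 in WT (SD, n = 3 each), and that of Bcl6 was 14.3 ± 0.54 in KO and 12.9 ± 0.66 in WT. At the other Dex times mean Bcl6 stayed above mean Zbtb16. After 2 h it was 12.2 against 9.27 in KO and 14.2 against 9.16 in WT. After 24 h it was 11.8 against 10.8 in KO and 12.7 against 11.2 in WT.

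The ratio of Prdm1 to Bcl6, per length, sets the pair against each other within a library. After 2 h of Dex it was 0.129 ± 0.047 in KO and 0.130 ± 0.018 in WT (SD, n = 3 each), against 0.500 ± 0.160 in KO and 0.602 ± 0.116 in WT with vehicle. By 24 h it was 0.789 in KO and 0.698 in WT with Dex, against 0.909 in KO and 0.884 in WT with vehicle. Prdm1 was thus far lower relative to Bcl6 at 2 h of Dex than in the vehicle libraries, and the ratios were closer at 24 h. These ratios use the values by which the genes were picked and are given as a description.

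Genotype was not used to pick the genes. Between KO and WT cells, none of the 3 genes passed the test in any condition or on average, which is 0 of 27 tests by edgeR's quasi-likelihood test at a Benjamini-Hochberg adjusted p of 0.05, with 0 at an unadjusted p under 0.05 and 0 by DESeq2. Over all genes, 0.224% were called for KO against WT averaged over the 4 conditions without Dex and 0.0538% averaged over the 3 Dex times, so few genes of any kind passed. In the single conditions, 0.0448% of genes were called after 24 h of Dex, 0.00896% with vehicle at 2 h and 0.00896% at 8 h, and 0% in the other conditions. Ms4a4a itself was called on both averages (edgeR adjusted p = 3.01e-07 without Dex and 0.000312 with Dex). It was not called in untreated cells (edgeR adjusted p = 0.679), with vehicle at 24 h (0.609) or with Dex at 2 h (0.575) or 8 h. A gene that did not pass in a single condition may therefore still differ between the genotypes.

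Averaged over the 4 conditions without Dex, the log2 fold change of KO over WT was 0.19 ± 0.15 for Zbtb16 (SE, edgeR adjusted p = 0.735). Its interval of 2 SE ran from -0.10 to 0.48. For Bcl6 it was 0.12 ± 0.08 (edgeR adjusted p = 0.697), with an interval from -0.05 to 0.29. For Prdm1 it was -0.00 ± 0.09 (edgeR adjusted p = 0.994), with an interval from -0.18 to 0.17. A change of 1.5-fold in either direction thus lies outside these averaged intervals of all 3 genes, and each interval includes 0. Intervals of single conditions were wider, and some held such a change. They reached 0.97 for Zbtb16 in untreated cells, 0.63 for Bcl6 with vehicle at 2 h and -0.61 for Prdm1 with Dex at 2 h. Zbtb16 intervals with vehicle held such a change too, reaching -0.60 at 2 h, 0.70 at 8 h and 0.89 at 24 h. The averaged value of Zbtb16 ranged from 0.064 to 0.24 when 1 library was left out, the lowest without KO untreated replicate 3.

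With Dex, the averaged log2 fold change of KO over WT was 0.06 ± 0.10 for Zbtb16, -0.01 ± 0.10 for Bcl6 and -0.06 ± 0.12 for Prdm1 (SE, edgeR adjusted p = 0.870, 0.990 and 0.894). In a single condition, the largest value for Bcl6 was 0.30 ± 0.17 with vehicle at 2 h (edgeR adjusted p = 0.932), where KO libraries held 40.6 to 69.0 CPM and WT libraries 38.7 to 50.8 CPM. It was 0.12 without KO vehicle 2 h replicate 1, 0.19 without WT vehicle 2 h replicate 3 and 0.49 without KO vehicle 2 h replicate 3. Overlap between the libraries of the genotypes was counted for the 3 genes only, with no share over all genes to set beside it. The libraries overlapped in 7 of 7 conditions for Zbtb16 and Prdm1 and in 6 of 7 for Bcl6. For Bcl6 they did not overlap after 8 h of Dex, with 28.8 to 31.0 CPM in KO and 24.9 to 27.6 CPM in WT. That log2 fold change was 0.19 ± 0.17 (SE), with an interval of 2 SE from -0.16 to 0.53 that includes 0 (edgeR adjusted p = 1.00, with 0% of all genes called, 177 at an unadjusted p under 0.05 and 0 by DESeq2).

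**Figure D3:**
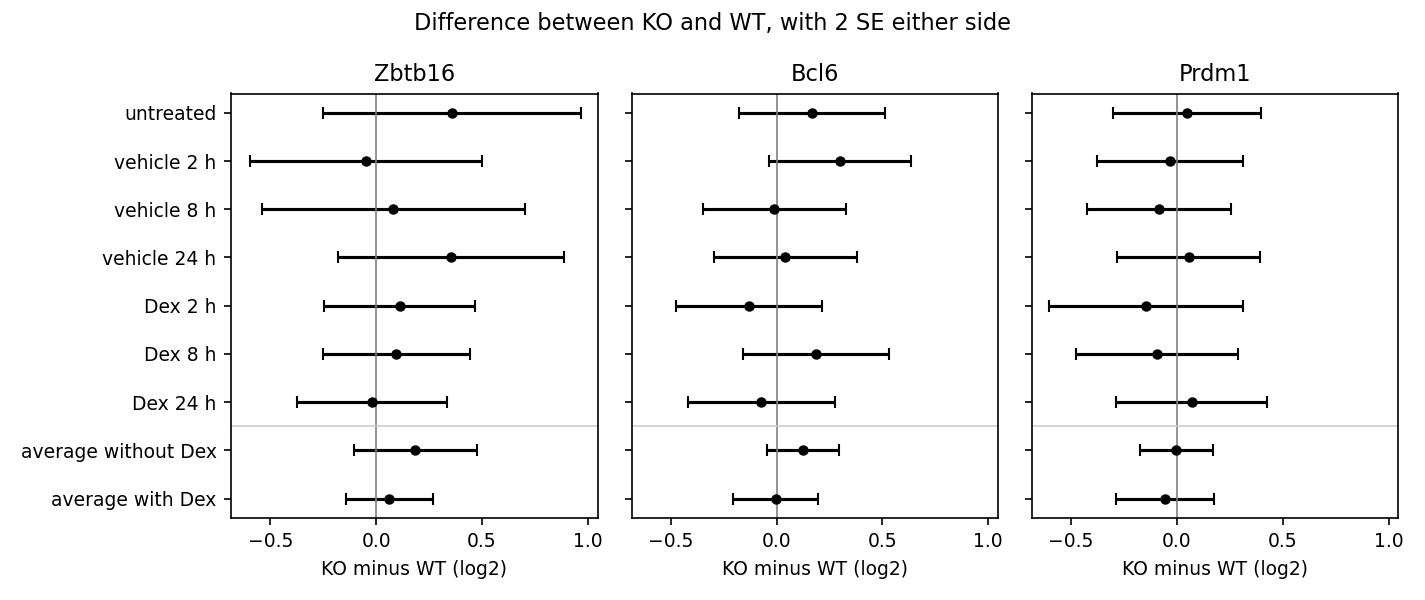
Fitted log2 fold change of KO over WT for the 3 genes in each condition and averaged without and with Dex, with bars of 2 SE either side. Every bar crosses 0, and the widest bars belong to Zbtb16 in the conditions without Dex, where its counts were lowest.

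The response to Dex was also compared between the genotypes. The Dex effect in KO minus that in WT, averaged over the times, was -0.07 ± 0.19 for Zbtb16, -0.11 ± 0.14 for Bcl6 and -0.04 ± 0.15 for Prdm1 on the log2 scale (SE, edgeR adjusted p = 0.933, 0.821 and 0.954). Of 12 such tests, 0 passed by edgeR, 0 had an unadjusted p under 0.05 and 0 passed by DESeq2, with 0% of all genes called in any of them. With all libraries in the fit, the largest difference was that of Bcl6 at 2 h. There the log2 fold change of Dex over vehicle was -1.06 ± 0.17 in KO and -0.63 ± 0.17 in WT, a difference of -0.43 ± 0.24 with an interval of 2 SE from -0.91 to 0.05 (edgeR adjusted p = 0.556). It was -0.25 without KO vehicle 2 h replicate 1, -0.27 without WT Dex 2 h replicate 1, and -0.62 without KO vehicle 2 h replicate 3. The difference of Zbtb16 at 24 h (-0.37 ± 0.32) ranged from -0.58 to -0.065 when 1 library was left out, so the order of these sizes depends on single libraries.

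Vehicle and untreated cells were compared as a measure of change without Dex. Untreated cells were taken only at the start, so effects of vehicle and of time in culture cannot be told apart. The vehicle libraries are shared with the Dex comparison. At 2 h, 0 of the 3 genes were called by edgeR beside 13.8% of all genes, with 1 of them (Bcl6) at an unadjusted p under 0.05 and none by DESeq2. At 8 h, Bcl6 and Prdm1 were higher in vehicle than in untreated cells, 2 of 3 beside 18.2% of all genes (8.49% higher). At 24 h, Prdm1 was higher, 1 of 3 beside 31.0% of all genes (15.6% higher).

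Prdm1 was 0.45 ± 0.12 higher on the log2 scale in vehicle than in untreated cells at 8 h (SE, edgeR adjusted p = 0.00816) and 0.64 ± 0.12 higher at 24 h (edgeR adjusted p = 0.000121), or 1.55-fold. At 24 h, 6 of 6 vehicle libraries lay above 6 of 6 untreated ones, with no share over all genes to set beside this. Bcl6 was 0.40 ± 0.12 higher at 8 h (edgeR adjusted p = 0.0175), and without WT untreated replicate 2 it was 0.35 higher with an adjusted p of 0.0610. At 24 h Bcl6 differed by 0.27 ± 0.12 (edgeR adjusted p = 0.0839), and without the library labelled KO vehicle 24 h replicate 2 by 0.34 with an adjusted p of 0.0426. Zbtb16 did not pass at 24 h (0.48 ± 0.20, edgeR adjusted p = 0.0711), though DESeq2 called it with an adjusted p of 0.0370.

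Genes with the most similar course over the 14 group means are named by Pearson's r, as a description. The points share the Dex treatment, 6 of 14 groups having it, and the libraries of all genes. For Zbtb16 these were Tsc22d3 (0.999), which encodes the glucocorticoid-induced protein GILZ, Ddit4 (0.996), an inhibitor of mTORC1 signalling, Lrrc8a (0.995), a volume-regulated anion channel subunit, Tigd2 (0.994), and Fkbp5 (0.993), a co-chaperone of the glucocorticoid receptor. The log2 fold change of Dex over vehicle at 2, 8 and 24 h was 2.90, 3.71 and 2.81 for Tsc22d3 and 5.24, 6.21 and 5.11 for Ddit4, so both were highest at 8 h, as Zbtb16 was. The most opposite genes were Plk2 (-0.989), a kinase, Dok1 (-0.981), an adaptor of tyrosine kinases, and Tec (-0.975), a tyrosine kinase.

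Prdm1 was closest to Cd300lb (0.967), an activating receptor of myeloid cells, Lpar6 (0.962), a receptor for lysophosphatidic acid, Ptpre (0.958), a tyrosine phosphatase, Fam110b (0.950) and Egr2 (0.950), a zinc finger transcription factor. Egr2 had log2 fold changes of -3.21, -2.52 and -1.09 at 2, 8 and 24 h, a course of the same shape. The most opposite were B4galt3 (-0.981), a galactosyltransferase, Icosl (-0.980), the ligand of the T cell receptor ICOS, and Tiparp (-0.970), an ADP-ribosyltransferase. Icosl had log2 fold changes of 3.66, 2.86 and 1.02.

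Bcl6 was closest to Mapkapk3 (0.963), a kinase downstream of p38, Fzd7 (0.942), a Wnt receptor, Vegfa (0.941), an angiogenic growth factor, Zc3h12d (0.940) and Slain2 (0.938), a microtubule-binding protein. The most opposite were Fam46a (-0.978), Adm (-0.958), the peptide adrenomedullin, and Il15ra (-0.957), a chain of the IL-15 receptor. Among the 3 genes themselves, r over the 14 group means was 0.772 between Bcl6 and Prdm1, -0.939 between Zbtb16 and Bcl6 and -0.783 between Zbtb16 and Prdm1.

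Related genes were counted for Dex against vehicle over both genotypes, where 14.5% of all genes were called at 2 h (8.14% higher, 6.41% lower), 52.2% at 8 h (27.5% higher, 24.7% lower) and 53.6% at 24 h (26.8% higher, 26.8% lower). The lists overlap in a few genes, Myc and Irf8 among them. The median log2 fold change of all genes was -0.00 at 2 h, 0.01 at 8 h and 0.01 at 24 h.

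Of 44 other BTB zinc finger genes, the family of Zbtb16 and Bcl6, 37 were measured. At 2 h 2 rose and 8 fell, at 8 h 10 rose and 3 fell, and at 24 h 12 rose and 3 fell. The median log2 fold change was -0.02, 0.07 and 0.05. Zbtb21 fell by 0.32 ± 0.07, 0.59 ± 0.07 and 0.42 ± 0.07 on the log2 scale at 2, 8 and 24 h (SE, edgeR adjusted p = 0.000986, 1.57e-08 and 7.73e-06). Zbtb20 rose by 0.53 ± 0.08 at 8 h and by 0.52 ± 0.08 at 24 h. No gene of this list changed by as much as Zbtb16, which was picked by its Dex response, so this is a description. The highest value in the list at any time was 0.89.

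Of 14 other PRDM genes, the family of Prdm1, 7 were measured and 0 were called at 2 or 8 h by edgeR. At 24 h 1 rose, Prdm2 (0.40 ± 0.13, edgeR adjusted p = 0.0127), which encodes a histone methyltransferase, and it was not called in 3 of 12 fits that each left out 1 library. The median over the 7 was -0.00, -0.08 and -0.13.

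All 35 listed co-repressors, the proteins through which such repressors act, were measured. At 2 h 1 rose and 8 fell, at 8 h 11 rose and 5 fell, and at 24 h 6 rose and 9 fell, with medians of -0.09, 0.06 and -0.02. Of the Groucho-type co-repressors, Tle3 rose by 1.29 ± 0.09 and Tle1 fell by 1.18 ± 0.09 at 8 h (edgeR adjusted p = 3.42e-14 and 5.42e-13). Hdac4, a class IIa histone deacetylase, rose by 0.62 ± 0.06 at 8 h. At 24 h Hdac9, another of that class, fell by 1.49 ± 0.17, and Ezh2, a histone H3K27 methyltransferase of proliferating cells, fell by 1.03 ± 0.08.

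Of 19 genes described as BCL6 targets, 19 were measured. At 2 h 1 rose and 7 fell, at 8 h 2 rose and 13 fell, and at 24 h 2 rose and 13 fell. The medians were -0.17, -0.57 and -0.71, beside medians of about 0 over all genes. Bcl6 itself was lower with Dex at these times. The chemokine gene Ccl2 fell by 1.87 ± 0.31, 2.63 ± 0.32 and 2.19 ± 0.32 at 2, 8 and 24 h (SE, edgeR adjusted p = 1.47e-05, 1.93e-08 and 6.98e-07). Ccl7 fell by 2.14 ± 0.35 at 2 h and by 2.78 ± 0.37 at 8 h. Cd44, an adhesion receptor, fell by 1.14 ± 0.05 at 8 h. At 24 h Dcstamp, needed for the fusion of osteoclasts, fell by 3.90 ± 0.45, and the cell cycle checkpoint kinase gene Chek1 by 2.27 ± 0.18. The pair of genes that rose at 8 h were the cell cycle inhibitors Cdkn1a (0.32 ± 0.08) and Cdkn1b (0.92 ± 0.16).

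Of 11 genes described as BLIMP-1 targets, 7 were measured. At 2 h, when Prdm1 was lowest, 0 rose and 3 fell, at 8 h 1 rose and 3 fell, and at 24 h 3 rose and 2 fell. The medians were -0.59, -0.10 and 0.24. Ciita, the master regulator of MHC class II genes, fell by 2.39 ± 0.31 at 8 h and by 2.40 ± 0.36 at 24 h. Myc fell by 0.62 ± 0.18 at 2 h (edgeR adjusted p = 0.0122, and 0.0578 in 1 of 12 fits that each left out 1 library) and by 1.31 ± 0.18 at 8 h. Irf8, a transcription factor of monocyte development, fell by 0.34 ± 0.05 at 2 h and rose by 0.31 ± 0.05 at 24 h.

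Of 17 upstream regulators, 17 were measured. At 2 h 2 rose and 4 fell, at 8 h 8 rose and 6 fell, and at 24 h 8 rose and 3 fell. Klf4, a transcription factor of monocytes, rose by 2.00 ± 0.16, 2.09 ± 0.17 and 2.00 ± 0.19 at 2, 8 and 24 h (SE, edgeR adjusted p = 4.20e-12, 1.87e-12 and 7.66e-11). Of the genes of the AP-1 factors, Jun fell by 0.44 ± 0.07 at 2 h and by 0.64 ± 0.07 at 8 h, while Fos rose by 0.69 ± 0.12 at 2 h. Stat3, whose product binds STAT sites, rose by 0.83 ± 0.08 at 8 h, and Foxo1 rose by 0.54 ± 0.07 at 24 h. The receptor gene Nr3c1 fell by 0.39 ± 0.06 at 8 h.

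**Figure D4:**
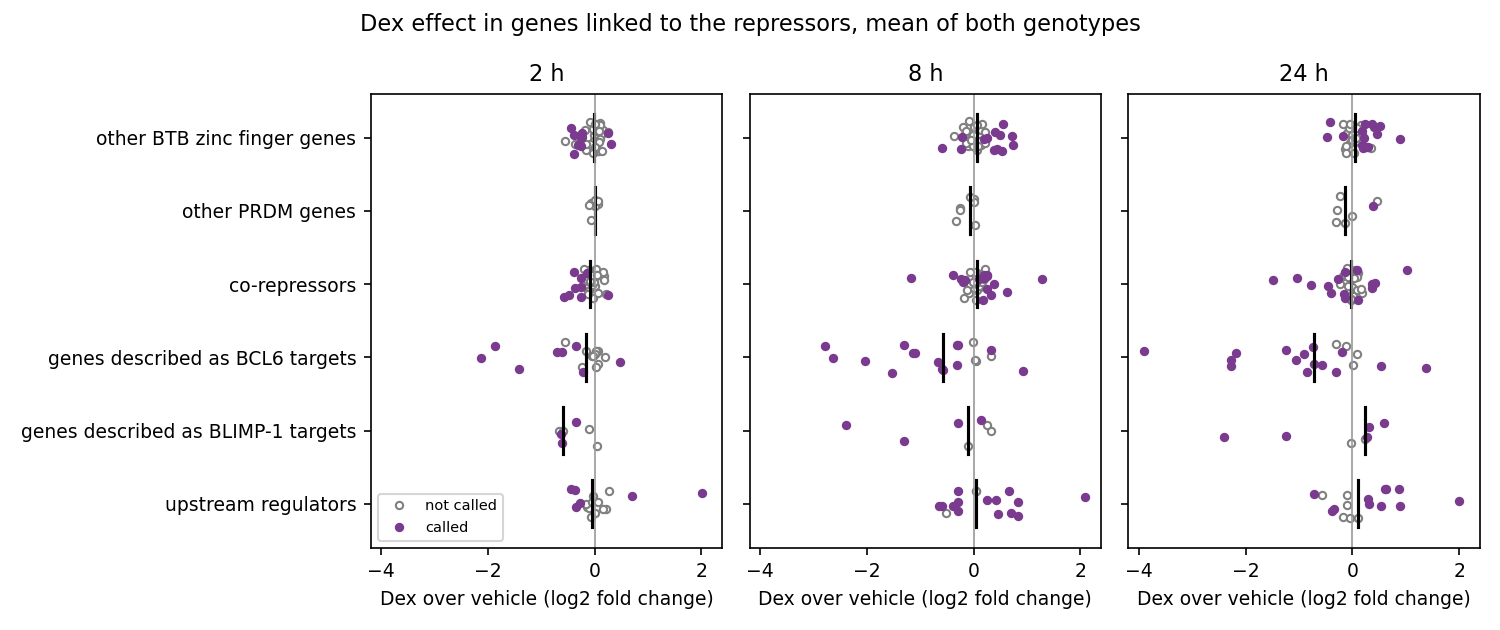
Log2 fold change of Dex over vehicle (mean of the genotypes) of each measured gene of the lists of related genes at 2, 8 and 24 h. Each point is a gene, filled where called (edgeR adjusted p under 0.05), and vertical bars are list medians. Of the 19 genes described as BCL6 targets, 13 are called lower at 8 h and 13 at 24 h.

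None of the 119 distinct genes of these lists was called between KO and WT on average or for the difference of the Dex effect, by edgeR or by DESeq2. Counted once for each list, 9 of 122 had an unadjusted p under 0.05 for KO against WT averaged without Dex, 6 averaged with Dex, and 4 for the averaged difference of the Dex effect. Of all 11160 genes, 933, 852 and 598 did so in the same 3 comparisons, which is no smaller a share.

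The nearest measured genes on each side of the 3 were followed as well. Of these 6, none was called at 2 h, where 14.5% of all genes were, 1 rose and 4 fell at 8 h, beside 52.2% of all genes called, and 2 rose and 2 fell at 24 h, beside 53.6%. On the sides of Bcl6, Rtp4 (350830 bases away) fell by 1.32 ± 0.19 at 8 h, and Lpp (404655 bases away) fell by 0.36 ± 0.08. On 1 side of Prdm1, Atg5 (72886 bases away) fell by 0.37 ± 0.04 at 8 h and rose by 0.16 ± 0.04 at 24 h. Bcl6 overlaps Gm37419 on the opposite strand, which is not analysed here, and the sources used here do not say if strand was used in counting.

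Markers of other cell types were looked up as well. Many were not measured, and the summed neutrophil markers reached levels like those of the 3 genes. Of 9 T and NKT cell markers 0 were in the table, and of 8 B and plasma cell markers 1 was, Cd79b, at 0.482 to 2.70 CPM in Dex libraries and 1.34 to 3.74 CPM in the others. The 5 measured of 8 neutrophil markers summed to 12.6 to 79.3 CPM with Dex and 19.9 to 103.6 CPM without. Of 6 dendritic cell markers 2 were measured, Flt3 and Ccr7, at a sum of 1.28 to 5.52 CPM with Dex and 0.177 to 3.38 CPM without. That sum joins opposite changes, since Flt3, a cytokine receptor of precursors and dendritic cells, rose by 5.11 ± 0.41 at 8 h and by 4.17 ± 0.45 at 24 h on the log2 scale, and Ccr7, a chemokine receptor of mature dendritic cells, fell by 2.38 ± 0.51 and by 5.49 ± 1.06 (SE). The 4 measured of 6 stromal markers rose with Dex at 24 h over both genotypes, 4 of 4 beside 26.8% of all genes, with 1 of 4 called in KO alone and 2 of 4 in WT alone. Of 12 fits that each left out 1 library, Col1a1 and Col1a2 were called in 11, Col3a1 in 10 and Pdgfrb in 12. They summed to 1.61 to 41.8 CPM with Dex and 1.34 to 13.98 CPM without. Their part in the levels of the 3 genes was not tested.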

How the data were processed

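The authors deposited expected counts per gene and library, and the submitters' processing notes name GRCm38 as assembly and HISAT2, fastp and Salmon as tools, without versions or their order. Estimated counts share reads between similar transcripts. Of the deposited expected counts, 69.5% lay within 0.01 of a whole number, and the lowest gene total was 256, so low genes had been removed. Totals were 10140211 to 33528397 a library (median 27998690). Groups were taken from sample titles. No pair of replicates agreed within counting noise (lowest chi-square per degree of freedom 7.09).

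Counts were rounded and fitted with edgeR 4.0.16 (R 4.3.3) as 14 group means over 42 libraries, scaled by TMM, with Benjamini-Hochberg adjusted p-values over 11160 genes, called at 0.05; filterByExpr removed 0 genes. CPM are TMM-scaled, and log2 CPM used a prior count of 2. The quasi-likelihood F test was checked on simulated counts. Alternatives were a fit without each library in turn, the replicate block, the compared libraries alone, median-ratio factors, a filter at a mean of 5 CPM, no filter, and DESeq2 1.42.0.

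The 3 genes, the lists and the tests were chosen with earlier results of these data known. Besides the 3, the genes named were Ms4a4a, Fkbp5 and Tsc22d3, up to 4 called members of each list with the lowest p at each time, the 5 most and 3 least similar genes and the markers. Of the genes named outside this rule, Cdkn1a and Cdkn1b, the neighbours Rtp4, Lpp and Atg5, and Gm37419 were chosen after their values were seen. Some genes that this rule names are not reported here.

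Same-numbered replicates deviated together, every correlation of a comparison being over 0.1, for KO against WT with vehicle at 2, 8 and 24 h (lowest 0.239, 0.229 and 0.227) and Dex at 2 h (0.254), and for Dex against vehicle at 8 and 24 h in WT (0.294 and 0.256) and at 2 and 8 h in KO (0.122 and 0.111). Promoter sequences are RefSeq's (GRCm38.p6), and positions are from GENCODE M21. Figures were drawn with matplotlib 3.10.9.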

Additional observations from a re-analysis of the deposited data

How the results depend on the processing

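Depth limits Zbtb16 without Dex, at 9 to 53 counts a library, and genes outside the deposited table were not analysed here. The log2 fold changes of Dex over vehicle of the 3 genes moved by less than the spread between replicates in 162 of 162 alternatives. Leaving out 1 library of a group of 3 can move such a value by only part of that spread. The count is therefore no test of the Dex responses. At 2 h, the value without 1 library ranged from 3.69 to 3.91 for Zbtb16, from -3.04 to -2.80 for Prdm1 and from -0.94 to -0.76 for Bcl6. For the vehicle comparison at 24 h, Zbtb16 was called by DESeq2 (0.48), and its range without 1 library was 0.32 to 0.72. Without 1 library, Bcl6 in vehicle against untreated cells ranged from 0.21 to 0.38 at 2 h (called without KO vehicle 2 h replicate 3), from 0.35 to 0.47 at 8 h (not called without WT untreated replicate 2) and from 0.18 to 0.34 at 24 h (called without KO untreated replicate 3, the library labelled KO vehicle 24 h replicate 2 or WT vehicle 24 h replicate 2). Zbtb16 at 24 h was called without KO untreated replicate 3, KO vehicle 24 h replicate 1 or WT vehicle 24 h replicate 1. The cause was not tested.

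No call for the 3 genes changed with the replicate block, median-ratio scaling or the filters. The block moved the difference of the Dex effect of Prdm1 at 8 h to 0.00126, where it was -0.0094 without the block. For KO against WT on average without Dex, 25 genes were called, 111 with the block and 71 by DESeq2. On average with Dex, 6 genes were called, 37 with the block and 25 by DESeq2. Without 1 library the first count ranged from 9 to 38 and the second from 6 to 14. For KO against WT with Dex at 24 h, 5 genes were called, 17 with the block, 25 by DESeq2 and 1 on the compared libraries alone. For vehicle against untreated cells at 2 h, 1535 were called, and 1007 on the compared libraries alone.

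Directions that turned when 1 library was left out belong to log2 differences that passed no test and whose intervals of 2 SE included 0. The largest of them was that of Zbtb16 between KO and WT in untreated cells (0.36 ± 0.31, SE). For KO against WT, Zbtb16 ranged from -0.12 to 0.57 in untreated cells, from -0.34 to 0.10 and from -0.055 to 0.23 with vehicle at 2 and 8 h and from -0.069 to 0.025 with Dex at 24 h. Bcl6 ranged from -0.072 to 0.039 and from -0.14 to 0.22 with vehicle at 8 and 24 h, from -0.25 to 0.0201 and from -0.16 to 0.091 with Dex at 2 and 24 h, and from -0.047 to 0.049 on average with Dex. Prdm1 ranged from -0.12 to 0.21 in untreated cells, from -0.12 to 0.11, from -0.14 to 0.021 and from -0.042 to 0.26 with vehicle at 2, 8 and 24 h, from -0.41 to 0.069, from -0.20 to 0.10 and from -0.089 to 0.24 with Dex at 2, 8 and 24 h, and from -0.047 to 0.047 and from -0.14 to 0.014 on average without and with Dex. For the difference of the Dex effect, Zbtb16 ranged from -0.14 to 0.15 at 8 h and from -0.14 to 0.036 on average, Bcl6 from -0.29 to 0.066 at 24 h, and Prdm1 from -0.37 to 0.11, from -0.12 to 0.19 and from -0.19 to 0.18 at 2, 8 and 24 h and from -0.12 to 0.035 on average. For vehicle against untreated cells at 2 h, Zbtb16 ranged from -0.0029 to 0.37.

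Of the list counts, other BTB zinc finger genes gave 9 at 24 h on the compared libraries alone, and 6 to 11 at 2 h without 1 library. Co-repressors gave 5 to 10 at 2 h without 1 library. Other PRDM genes gave 1 at 8 h by DESeq2 and on the compared libraries alone, and 0 to 3 at 24 h without 1 library. Genes described as BLIMP-1 targets gave 2 to 4 at 2 h without 1 library. Of 79 named list genes and times, 71 were called in every fit without 1 library, 79 in every other alternative, and none changed sign.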
